A study of Mus musculus with 2 samples.

Results

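The genes described here encode the proteins of the cytosolic ribosome, taken as every autosomal protein-coding mouse gene whose symbol is Rpl or Rps followed by a number and at most one letter a or x, plus Rplp0, Rplp1, Rplp2 and Rpsa. The rule found 72 of 20661 autosomal protein-coding genes in the RefSeq gene table of GRCm38.p6 (mm10), 43 for the large and 29 for the small subunit. Each gene was represented by the 50 kb bins that its span overlaps. This gave 71 loci out of 16881 distinct protein-coding loci, because 2 of the genes lie in 1 bin. In all, 68 loci are a single bin and 3 (Rpl17, Rpl11 and Rplp2) are 2 bins long. The rule used symbols and positions only and no measured value. Another 4 genes with such symbols (Rpl39, Rpl10, Rps4x and Rpl36a) are on the X chromosome and were outside it.

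A cytosolic ribosome has a small subunit, which reads the messenger RNA, and a large subunit, which joins amino acids. Ribosomal proteins are made in near equal amounts from unlinked single-copy genes that are transcribed strongly in nearly every cell, and many of their messages begin with a run of C and T that ties their translation to growth signals. In liver, ribosome production follows feeding and growth, and these genes are usually treated as housekeeping genes rather than as liver-specific targets.

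The data are HiChIP contact maps, in which chromatin is ligated to its spatial neighbours and then precipitated with an antibody, so that each count is a contact between 2 pieces of DNA of which at least 1 is pulled down. Liver came from wildtype mice given 1 oral dose either of vehicle (propylene glycol with Tween 80) or of GW4064, an agonist of the bile acid receptor FXR, in that vehicle. Tissue was taken 4 h later, and the antiserum recognised Foxa2, a pioneer transcription factor of hepatocytes. There was 1 library per group, so the effect of the library and that of the treatment cannot be told apart, and no difference has a replicate check. Age, sex and strain, and whether animals were pooled, are not given in the labels. Depth was 22686004 contacts with vehicle and 29003442 with GW4064, which is 1.28 times as many. Same-bin contacts at the loci of 14 hepatocyte markers had their median at percentile 79.8 of all protein-coding loci in the vehicle library and 58.7 in the GW4064 library, against 59.6 and 75.7 for 12 neuron markers and 61.8 and 58.0 for 10 leukocyte markers. The ribosomal protein loci were at percentile 35.7 and 26.6. These are counts of DNA contacts and not of RNA, and the part of the hepatocyte and neuron shift in the results below was not tested.

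Ribosomal protein genes are short and lie in gene-dense DNA. Their median span was 3179 bp (982 to 11774 bp) against 17491 bp over all autosomal protein-coding genes. The 21 bins centred on a member held a median of 23 protein-coding genes (3 to 67), against 15 for all loci. When all loci were divided into 10 strata by this number, 15 members fell in the highest stratum (40 to 76 genes), 34 in the 3 highest and 13 in the 3 lowest. The loci are on 18 autosomes, with none on chromosome 19, and 14 of the genes are on chromosome 7. Ribosomal protein genes also have many processed pseudogenes, and how reads that match several places were handled is not given in the sources used here.

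Start-site sequences were taken from RefSeq (GRCm38.p6), which gave 62 promoter windows for 52 of the 72 genes. They are shown because many of these genes have a pyrimidine run near the start, a feature that the choice by symbol did not use. A run was a C followed by at least 6 further C or T on the sense strand, searched for within 30 bases on either side of the annotated start. It was present in 37 of the 62 windows, or 59.7% (95% exact Clopper-Pearson interval 46.4 to 71.9), against 26.9% of 20084 windows of all genes. Below are the 60 bases around the start of the 3 genes with a run whose loci had the lowest local contact ratio (Rps15, Rpl18 and Rpl10a) and of the 3 with the highest (Rpl26, Rpl15 and Rps9), 5′ to 3′, with the run in capitals.
Rps15, chr10:80292401-80292460, plus strand: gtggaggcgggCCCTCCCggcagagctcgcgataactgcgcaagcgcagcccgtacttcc
Rpl18, chr7:45718041-45718100, plus strand: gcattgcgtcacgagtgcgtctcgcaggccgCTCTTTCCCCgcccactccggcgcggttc
Rpl10a, chr17:28328441-28328500, plus strand: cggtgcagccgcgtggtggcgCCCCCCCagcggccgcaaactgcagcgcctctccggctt
Rpl26, chr11:68901536-68901595, plus strand: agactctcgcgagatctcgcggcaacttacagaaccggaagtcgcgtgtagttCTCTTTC
Rpl15, chr14:18270957-18271016, minus strand: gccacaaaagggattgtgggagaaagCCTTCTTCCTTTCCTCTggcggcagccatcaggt
Rps9, chr7:3704011-3704070, plus strand: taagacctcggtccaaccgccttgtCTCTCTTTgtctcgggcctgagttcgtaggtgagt
The Rpl15 run is 17 bases long and spans the start, and that of Rpl18 is 10 bases long and begins 2 bases into the transcript. The annotated starts shown for Rpl18 and Rps9 lie inside the gene spans used for the loci and not at their first base. The runs of Rps15 and Rpl10a, 7 bases each, lie before the annotated start. Genes without a run, such as Rpl37, were not candidates for showing, so the set says nothing of how runs and ratios go together.

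Other short motifs were counted over the whole windows of 300 bases, on both strands, and their intervals also count windows of 1 gene as independent. CCGGAAG, the core bound by GABP and other ETS factors, was in 23 of 62 member windows (37.1%, interval 25.2 to 50.3) and in 11.9% of all windows. The E-box CACGTG, bound by Myc and USF, was in 12.9% of member windows (5.74 to 23.9) against 7.89%, and the TATA box TATAAA was in 6.45% (1.79 to 15.7) against 12.7%. The forkhead core TGTTTAC, which Foxa factors bind, was in 1 member window, that of Rpl41, or 1.61% (0.0408 to 8.66), against 3.04% of all windows. The median GC content was 58.8% in member windows and 57.0% in all. A match is a description of the sequence and not a binding site.

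The ribosomal protein loci together held 51066 contacts in the vehicle library and 51054 in the GW4064 library, although the GW4064 library was deeper. Contacts were divided into 4 classes, namely those within a bin, local contacts with other bins of the same chromosome up to 1 Mb away, distant cis contacts over 1 Mb away, and trans contacts with other chromosomes. Ratios of GW4064 to vehicle were scaled to equal genome totals of the class, and a locus was called lower or higher when the exact 95% interval of its ratio lay on one side of 1. All intervals cover counting error only, and the calls compare these 2 libraries.

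In local contacts the members had 13678 counts with vehicle and 14801 with GW4064, a scaled ratio of 0.760 (log2 -0.40, interval -0.43 to -0.36). Of 71 loci, 50 were lower, 0 were higher and 21 had an interval that held 1. Among 16741 protein-coding loci with local contacts, 39.3% were lower and 5.53% higher, and among loci of the members' own gene densities 47.0% were lower. A difference of at least 1.5-fold was seen for 23 members downward and 0 upward, against 9.47% and 0.376% of all loci. The median member log2 ratio was -0.41, with quartiles of -0.61 and -0.24, against -0.15 for all protein-coding loci and -0.25 for other loci at the same density. Scaling to the totals of all contacts, in place of local contacts, left 31 lower and 1 higher, so the counts rest on the scaling chosen. The shares of 39.3% and 47.0% belong to the scaling by class, and those under this other scaling are not given here. Such a scaling moves all loci by 1 constant and leaves the difference between members and other loci as it was.

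**Figure D1:**
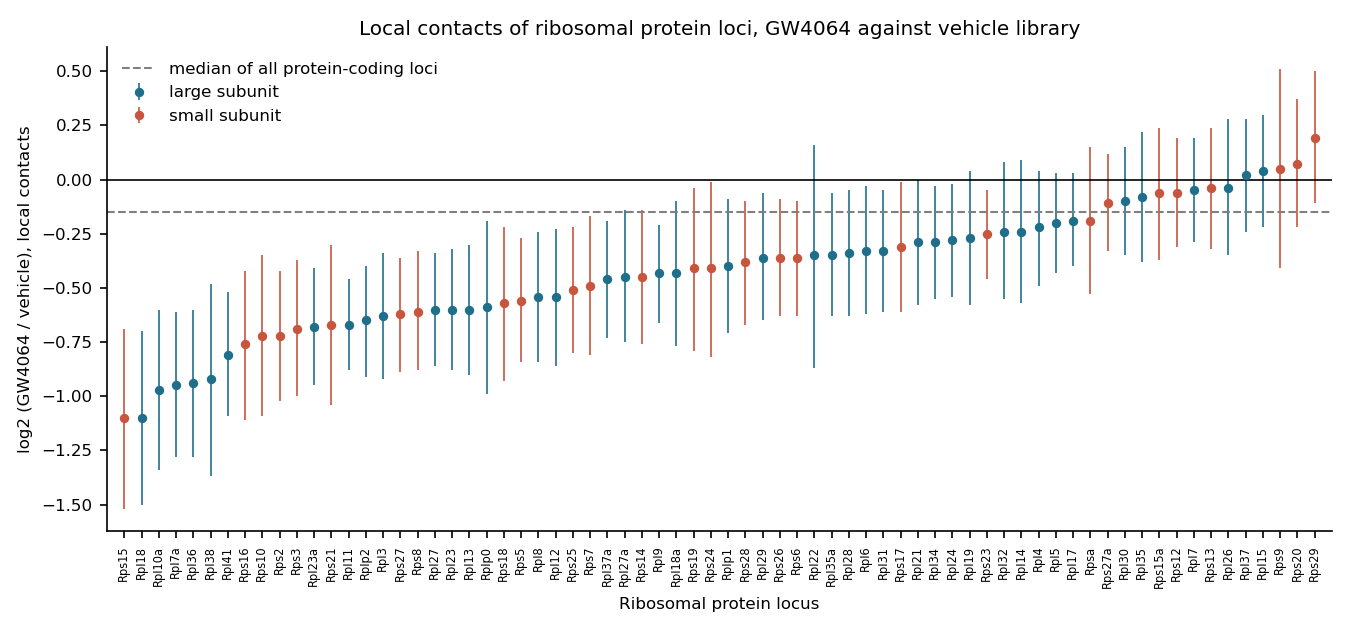
Log2 ratio of GW4064 to vehicle local contacts (vertical axis) for the 70 loci that hold a single gene of the symbol rule, ordered by ratio, with bars for the exact 95% counting interval, colour for the subunit and a dashed line for the median of all protein-coding loci at -0.15. The points run from -1.10 at Rps15 and Rpl18 to 0.19 at Rps29, and 65 of 70 lie below 0.

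The lowest local ratios belonged to proteins of both subunits. Rps15 (chr10:80292431-80294114), a small subunit protein near the decoding site, had 125 local contacts in the vehicle library and 83 in the GW4064 library, a log2 ratio of -1.10 (-1.52 to -0.69). Rpl18 (chr7:45715467-45720835), of the large subunit, had 134 and 89, also -1.10 (-1.50 to -0.70). At both loci, and at those named next, the deeper library had the fewer raw local contacts. Rpl10a (chr17:28328471-28331033), the protein of the L1 stalk, had 150 and 109 (-0.97, -1.34 to -0.60). Rpl7a (chr2:26910685-26913312) had 180 and 133 (-0.95, -1.28 to -0.61). Rpl36 (chr17:56610094-56614246) had 171 and 127 (-0.94, -1.28 to -0.60).

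At the other end, 5 loci had log2 ratios above 0, and the interval of each held 0. Rps29 (chr12:69157722-69159186), a zinc-binding protein of the small subunit, had 142 vehicle and 231 GW4064 local contacts (0.19, -0.11 to 0.50). Rps20 (chr4:3831584-3835655) had 162 and 242 (0.07, -0.22 to 0.37), and the next, Rps9, had only 68 and 100 (0.05, -0.41 to 0.51), below the 200 over both libraries required of a ranked locus. At these 3 loci, and at those named next, the GW4064 library had more local contacts by a larger factor than its depth. Rpl15 (chr14:18267823-18270986) had 203 and 297 (0.04, -0.22 to 0.30). Rpl37 (chr15:5116613-5119140) had 209 and 302 (0.02, -0.24 to 0.28). Rpl26 (chr11:68901566-68904534), known for binding the p53 message, had 145 and 201 (-0.04, -0.35 to 0.28).

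The acidic P stalk, where elongation factors dock, was lower at all 3 of its genes. Rplp0, its anchor, had 109 local contacts with vehicle and 103 with GW4064 (log2 -0.59, -0.99 to -0.19). Rplp1 had 168 and 181 (-0.40, -0.71 to -0.09). Rplp2 had 281 and 254 over its 2 bins (-0.65, -0.91 to -0.40). The 3 intervals overlap each other, so the stalk genes were not told apart in this ratio. As 50 of 71 members were lower, the 3 calls are not read as particular to the stalk. The share lower was 39.3% over all protein-coding loci and 47.0% at the members' densities.

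Rpl5 and Rpl11 form, with 5S RNA, the particle that restrains Mdm2 when ribosome assembly fails, and their loci had different ratios. Rpl11 had 401 and 358 local contacts over 2 bins (log2 -0.67, -0.88 to -0.46). Rpl5 had 285 and 354 (-0.20, -0.43 to 0.03), and its interval held 0 and did not overlap that of Rpl11. Rpl3 and Rpl4 are early-assembling core proteins of the large subunit. Rpl3 had 211 and 194 (-0.63, -0.92 to -0.34), and Rpl4 had 214 and 261 (-0.22, -0.49 to 0.04), with overlapping intervals.

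Among small subunit proteins, Rps3, at the entry of the messenger RNA and also a DNA repair factor, had 181 and 160 local contacts (log2 -0.69, -1.0 to -0.37). Rps6, the classical target of S6 kinase, had 228 and 252 (-0.36, -0.63 to -0.10), and Rps19, mutated in Diamond-Blackfan anaemia, had 116 and 124 (-0.41, -0.79 to -0.04). These 3 were lower. After subtracting the median of other loci at the same gene density, Rps3 was at -0.47 and Rps6 at -0.28. Rps19 was at 0.03, so its ratio was not low for its density. Rpsa, the laminin-receptor protein of the small subunit, had 130 and 162 (-0.19, -0.53 to 0.15). Rps27a, made as a fusion with ubiquitin, had 293 and 387 (-0.11, -0.33 to 0.12). The intervals of Rpsa and Rps27a held 0.

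The subunits had overlapping intervals in local contacts. The 42 loci of the large subunit alone had 8440 and 9067 local contacts, a pooled log2 ratio of -0.41 (-0.45 to -0.36), with 29 lower (69.0%). The 28 of the small subunit had 5076 and 5605, a pooled ratio of -0.37 (-0.42 to -0.31), with 20 lower (71.4%). Their medians were -0.38 and -0.41, in the opposite order, and the share lower over all protein-coding loci was 39.3%. In distant cis contacts the pooled ratio was -0.39 (-0.44 to -0.35) for the large subunit, with 37 of 42 lower, and -0.29 (-0.34 to -0.24) for the small, with 18 of 28 lower. These intervals do not overlap, and 46.3% of all loci were lower in that class. The medians over loci were closer, at -0.41 for the large and -0.39 for the small subunit. The median differences from loci of the same density were -0.17 and -0.14, and the subunit difference was not tested. By chromosome, all 6 loci on chromosome 17 were lower (pooled -0.69, -0.82 to -0.56), where 42.9% of all protein-coding loci were. On chromosome 7, 10 of 13 were lower (pooled -0.47, -0.55 to -0.38) against 45.5%. On chromosome 11, 4 of 7 were lower (pooled -0.42, -0.52 to -0.31) against 58.2%, and on chromosome 9, 3 of 6 (pooled -0.33, -0.45 to -0.20) against 36.9%. On chromosome 15, 2 of 4 were lower (pooled -0.28, -0.41 to -0.14) against 55.1%. These chromosome shares are not matched on gene density. On chromosome 17 the interval lay below the median of other loci at the same density for 3 of the 6.

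Gene density went with the local ratio among the members. In the highest density stratum all 15 ribosomal protein loci were lower, with a median log2 ratio of -0.65 against -0.45 for the other loci of that stratum. In the 3 lowest strata 6 of 13 were lower, and the medians of the other loci there were 0.04, -0.05 and -0.09. The shares of other loci called lower within these strata are not given here, so these counts are not read as particular to the members. Across the 71 loci, Pearson's r between the local ratio and the number of genes in 21 bins was -0.603 and Spearman's rho was -0.602, and across all 16741 loci they were -0.393 and -0.433. These are descriptions over loci that share both libraries, and loci are not replicates.

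**Figure D2:**
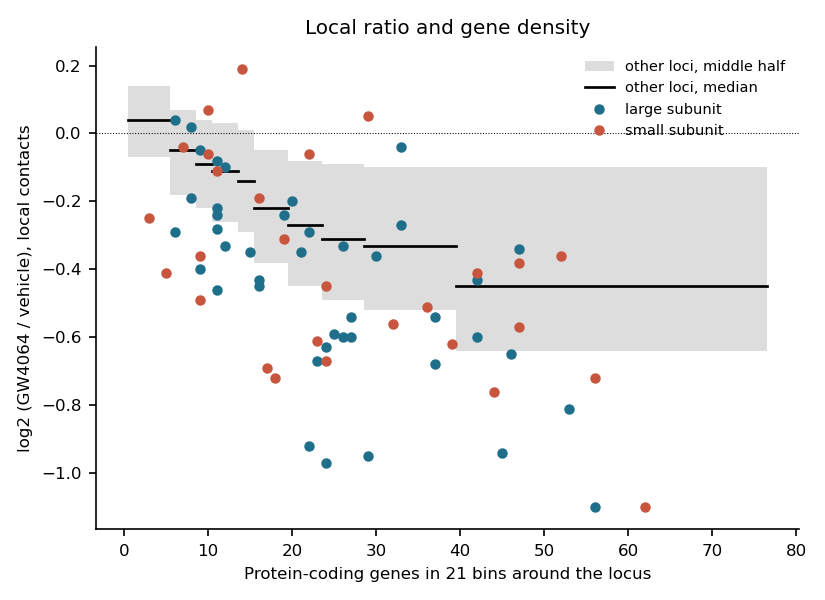
Log2 ratio of GW4064 to vehicle local contacts (vertical axis) against the number of protein-coding genes in the 21 bins around each locus (horizontal axis), with a point for each of the 70 loci that hold a single gene of the symbol rule, coloured by subunit, and a black line and grey band for the median and quartiles of the other protein-coding loci in each of 10 density strata. The line falls from 0.04 to -0.45 with density, and 49 of the 70 points lie below the median of their stratum.

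Set beside other loci of the same stratum, the members were still lower in the middle of their range. The median difference was -0.21 in log2, 50 of 71 members were below the median of their stratum, and the counting interval lay below that median for 22 and above it for 1. The share of other loci whose interval clears their stratum's median is not given here, so the 22 and the 1 have no background. The member median was below that of the other loci in 8 of 10 strata. The median member stood at percentile 22.9 of its stratum, and 38 members were below percentile 25 and 5 were at or above percentile 75. Against other loci of 1 or 2 bins, 13290 in number, the difference was also -0.21, the same value as without the limit on length. Crossing 5 density strata with 5 strata of vehicle contacts per bin gave -0.15.

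The same direction was seen in the other contact classes. Within bins, the members had 7269 contacts with vehicle and 7847 with GW4064, a pooled log2 ratio of -0.36 (-0.40 to -0.31), and 32 were lower and 0 higher, against 29.8% and 4.47% of all protein-coding loci. In distant cis contacts they had 14811 and 14591 (-0.35, -0.39 to -0.32), and 56 were lower and 0 higher, against 46.3% and 6.05% of all loci. In trans contacts they had 15308 and 13815 (-0.22, -0.25 to -0.19), and 28 were lower and 0 higher, against 28.0% and 5.84%. Scaled to the totals of all contacts, the pooled trans ratio was -0.50, below the -0.38 of distant cis and the -0.24 of same-bin and of local contacts, so the order of the classes depends on the scaling. At the members' own gene densities the shares of loci called lower were 34.9% within bins, 51.8% in distant cis and 32.8% in trans. The members' shares were 45.1%, 78.9% and 39.4%, so the trans share was close to that background.

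**Figure D3:**
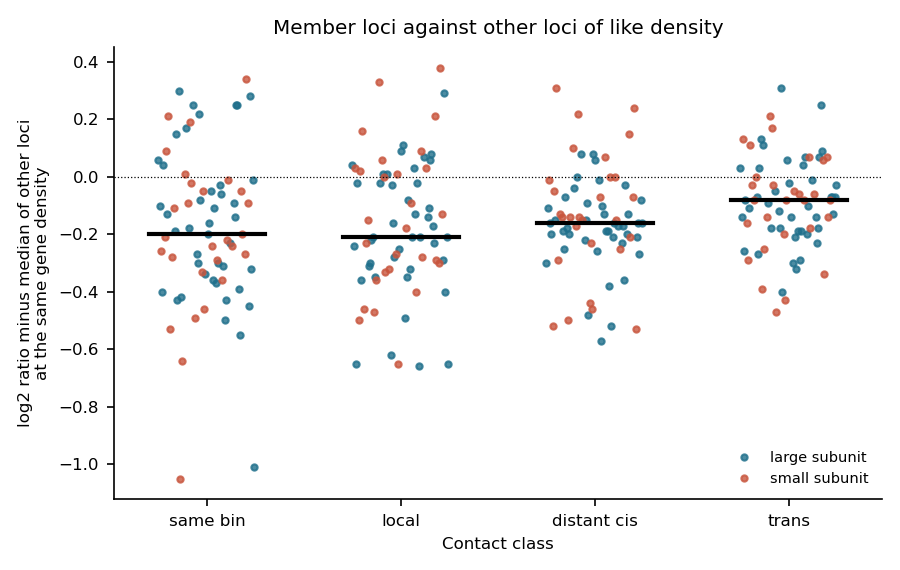
Log2 ratio of GW4064 to vehicle minus the median of other protein-coding loci in the same gene-density stratum (vertical axis) for the 70 loci that hold a single gene of the symbol rule in 4 contact classes, with black bars for the medians of all 71 loci and a side-to-side spread within a class that has no meaning. The medians are -0.20 within bins, -0.21 for local, -0.16 for distant cis and -0.08 for trans contacts, and 56, 50, 61 and 53 of all 71 loci lie below their stratum's median.

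The ratios of the classes went together across members. Pearson's r with the local ratio was 0.705 for same-bin, 0.625 for distant cis and 0.473 for trans contacts (n = 71 loci that share both libraries). The log2 ratio was below 0 in all 4 classes at 54 loci (76.1%), against 50.7% of all protein-coding loci and 57.6% at the same density. The interval was below 0 in all 4 classes at 16 loci, among them Rpl11, Rplp2, Rps3, Rpl3, Rpl10a and Rpl7a. That is 22.5%, against 12.5% of all loci and 16.1% at the same density. The interval was below 0 in no class at 9 loci, among them Rps29, Rps20, Rpl15, Rps27a and Rpsa, which is 12.7% against 38.5% of all loci and 32.8% at the same density. Rps3 was low in each class, with log2 ratios of -1.25 within its bin, -0.75 in distant cis and -0.53 in trans.

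Most same-bin contacts were found at Rps27a, with 172 and 250 counts in 1 bin, and at Rpl11 (207 and 195) and Rpl17 (177 and 222), whose loci are 2 bins. Fewest were found at Rps9 (20 and 29), Rpl18 (57 and 31) and Rps15 (59 and 47). Per bin, the median member had 99.0 same-bin contacts in the vehicle library, against 105 at other loci of the same density, and 104 against 121 in the GW4064 library. The median of local contacts per bin was 181 with vehicle against 167 at the same density, and 201 against 192 with GW4064. The median member thus had more local and fewer same-bin contacts than other loci of its density in both libraries. In distant cis they had 190 against 212 with vehicle and 172 against 215 with GW4064.

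As shares of all contacts of the member loci, 26.8% (26.4 to 27.2) were local with vehicle and 29.0% (28.6 to 29.4) with GW4064, against 23.0% and 25.3% at the same density. Trans contacts made up 30.0% (29.6 to 30.4) and 27.1% (26.7 to 27.4), against 29.2% and 25.2% at the same density and 25.5% and 21.2% over all bins. The local share of the members was thus higher in the GW4064 library, as it was over all bins (27.3% against 24.2%), while their contacts relative to the class total were lower. Distant cis contacts made up 29.0% and 28.6% of member contacts, below the 32.8% and 33.0% of other loci at that density.

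By distance along the chromosome, with both libraries scaled to equal cis totals, the members were lower in all 8 distance classes. With the next bin, 50 kb away, they had 4441 and 4894 contacts (log2 -0.27, -0.32 to -0.21), and the value for other loci of the same density was -0.10. At 500 to 1000 kb they had 2594 and 2577 (-0.42, -0.49 to -0.34) against -0.16. Beyond 10000 kb they had 8830 and 8598 (-0.44, -0.49 to -0.40) against -0.24. The difference from loci of the same density was between -0.12 and -0.25 in every class, with the largest at 500 to 1000 kb and the smallest at 5000 to 10000 kb.

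**Figure D4:**
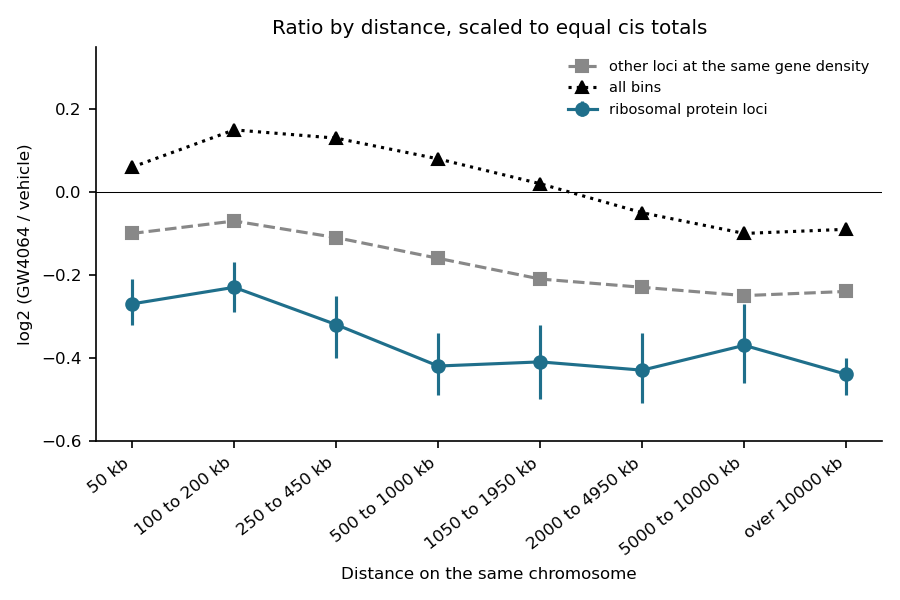
Log2 ratio of GW4064 to vehicle contacts (vertical axis), scaled to equal cis totals, in 8 distance classes (horizontal axis), for the ribosomal protein loci with exact 95% counting intervals, for other protein-coding loci at the same gene density and for all bins. The members run from -0.23 at 100 to 200 kb to -0.44 over 10000 kb and lie below both other lines at each distance, while all bins run from 0.15 to -0.10.

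Contacts of the members with each other were then compared with the number expected from the trans totals of both loci and of their chromosome pair. Over 2309 pairs of loci on different chromosomes, 22 contacts were seen in the vehicle library against 11.3 expected, a ratio of 1.94 (exact Poisson interval 1.21 to 2.94). In the GW4064 library 27 were seen against 8.82 expected, a ratio of 3.06 (2.02 to 4.46). Other gene bins of the members' density had ratios of 1.31 and 1.34. The counts are small, and 47 pairs had 1 contact over both libraries, 1 pair had 2 (Rps10 on chromosome 17 with Rpl7a on chromosome 2, 1 in each library) and 2261 had 0.

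With 1 neighbouring bin added on each side, 193 contacts among the members were seen against 97.3 expected with vehicle (1.98, 1.71 to 2.28) and 162 against 77.2 with GW4064 (2.10, 1.79 to 2.45). The intervals of the 2 libraries overlap, both with and without the neighbours. The neighbouring bins alone gave 1.85 and 1.54, so bins beside the genes, with no gene of the symbol rule in them, also had ratios above 1. Within the large subunit the ratios of the gene bins were 2.36 (1.13 to 4.35) and 3.05 (1.46 to 5.60), and between subunits 1.49 (0.645 to 2.94) and 3.35 (1.83 to 5.62). Intervals this wide do not separate contacts within a subunit from those between subunits.

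Ratios above 1 were also found in the same way for other gene lists, with neighbours included. Mitochondrial ribosomal protein loci had 1.53 (1.32 to 1.75) and 1.59 (1.37 to 1.84), and ribosome biogenesis loci had 1.74 (1.43 to 2.10) and 1.79 (1.45 to 2.18). Translation factor loci had 1.76 (1.33 to 2.28) with vehicle and 2.25 (1.71 to 2.91) with GW4064. The intervals of the ribosomal protein loci overlap those of each of these lists in both libraries, narrowly for the mitochondrial list. The excess is thus not called particular to the ribosomal protein loci.

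**Figure D5:**
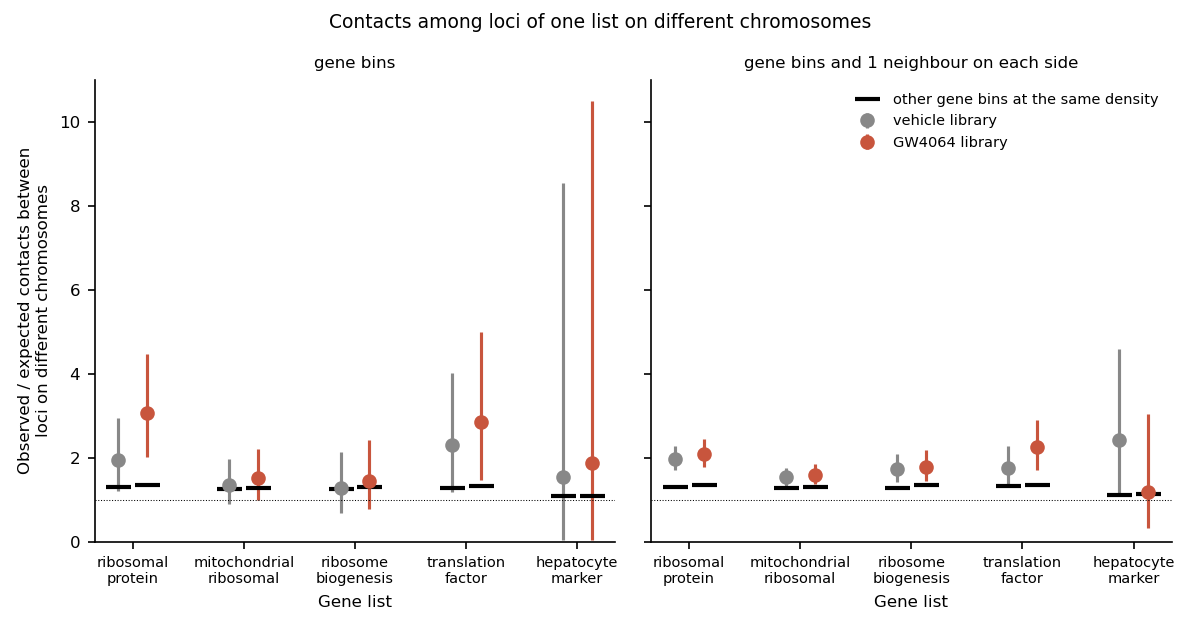
Observed over expected contacts between loci of one gene list on different chromosomes (vertical axis) in the vehicle and GW4064 libraries, for gene bins alone and with 1 neighbour on each side, with bars for the exact 95% Poisson interval and black dashes for other gene bins at the same density. With neighbours the ribosomal protein loci are at 1.98 and 2.10, above their dashes at 1.31 and 1.34, and the hepatocyte marker list of 14 loci has the widest intervals.

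On the same chromosome, 170 pairs of members over 1 Mb apart had 34 contacts with vehicle against 8.66 expected from distance and from both loci's coverage (3.93, 2.72 to 5.49), and 20 against 6.45 with GW4064 (3.10, 1.89 to 4.79). Other gene bins of that density had 1.38 and 1.37. The pairs with most contacts over both libraries were Rps9 with Rpl28, 1050 kb apart on chromosome 7 (2 and 1), and Rps13 with Rps15a, 1800 kb apart on that chromosome (2 and 1). The 6 pairs up to 1 Mb apart had 34 contacts against 28.8 expected with vehicle (1.18, 0.818 to 1.65) and 42 against 20.4 with GW4064 (2.06, 1.48 to 2.78). Of these, Rpl41 and Rps26, 100 kb apart on chromosome 10, gave 16 and 22 contacts. Rpl23 and Rpl19, 250 kb apart on chromosome 11, gave 4 and 9, and Rps28 and Rps18, 150 kb apart on chromosome 17, gave 7 and 5. These near pairs were chosen for naming after their values were seen.

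The partners of the members' trans contacts lay in gene-dense DNA. Bins with 11 or more protein-coding genes in the 21 bins around them took 45.2% (44.4 to 46.0) of the members' 15308 trans contacts in the vehicle library, against 40.0% for other loci of the same density and 30.9% for all bins. In the GW4064 library they took 45.8% (45.0 to 46.7) of 13815, against 38.4% and 28.7%. The members' value was nearly the same in the 2 libraries, while those of the other loci and of all bins were lower with GW4064.

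Genes that work with the ribosomal proteins were listed and measured in the same way, and their counts are to be read against the 39.3% of all loci that were lower and the 47.0% at the members' densities. Ribosomal proteins outside the symbol rule, including the fusion gene Fau and the scaffold Rack1, had 7 of 12 loci lower and 0 higher (median log2 -0.43, or -0.09 after subtracting loci of the same density), and 2 of these loci share a bin with a member. The other 5 loci had ratios between 0.05 and 0.22, with intervals that held 0. Fau had 175 and 172 contacts (-0.53, -0.85 to -0.22), and Rack1 had 195 and 210 (-0.40, -0.69 to -0.11). Rps3a1 had 173 and 267 (0.12, -0.16 to 0.40).

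Mitochondrial ribosomal proteins, which serve the separate ribosome of mitochondria, had 46 of 77 loci lower and 1 higher (median -0.33, or -0.09 after subtracting loci of the same density). The 1 higher locus was Mrpl3, with 107 and 210 local contacts (0.46, 0.12 to 0.81), and Mrps34 was at the low end with 158 and 105 (-1.10, -1.47 to -0.73). Ribosome biogenesis factors had 26 of 50 lower and 0 higher (median -0.28, or -0.04 after subtraction), with Grwd1, a chaperone of Rpl3, at 128 and 85 (-1.10, -1.51 to -0.69) and Riok2, a kinase of small subunit assembly, at 196 and 316 (0.18, -0.08 to 0.44). Translation factors had 22 of 35 lower and 1 higher (median -0.30, or -0.01). Eef2, the elongation factor that moves the ribosome along, had 164 and 106 (-1.14, -1.51 to -0.78), and Eif3e, a subunit of initiation factor eIF3, had 222 and 375 (0.25, 0.00 to 0.49). Regulators of ribosomal protein synthesis had 14 of 20 lower and 0 higher (median -0.45, or -0.19). Akt1 had 114 and 93 (-0.80, -1.21 to -0.40), while Myc had 321 and 447 (-0.03, -0.24 to 0.18). Loci below the median of their density stratum numbered 56 of 77 for mitochondrial ribosomal proteins and 29 of 50 for biogenesis factors. Such loci were 20 of 35 for translation factors and 19 of 20 for regulators, against 50 of 71 members. By this count the members did not stand apart from the mitochondrial and regulator lists.

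The marker lists of cell types were measured in the same way. Hepatocyte markers had 12 of 14 lower and 1 higher (median -0.43, or -0.26 after subtracting loci of the same density), with Cps1, a urea cycle enzyme, the higher one at 370 and 620 (0.24, 0.05 to 0.43). Neuron markers had 3 of 12 lower and 1 higher (median 0.01, or -0.03), and leukocyte markers had 6 of 10 lower and 0 higher (median -0.32, or -0.02). The ribosomal protein value of -0.21 after subtraction lies between the -0.26 of the hepatocyte list and the -0.19 of the regulators, and no test of the differences between lists was made.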

How the data were processed

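Foxa2 HiChIP of mouse liver was measured in 2 libraries, 1 for vehicle and 1 for GW4064, with 22686004 and 29003442 contacts. The deposited matrices hold raw counts of contacts per pair of 50 kb bins, for which HiC-Pro, Bowtie2 2.2.9 and mm10 are named in the submitters' processing notes. The version of HiC-Pro, the read filters and the treatment of duplicates are not given in sources used here. The deposited bin tables hold other values only, namely an index of 54521 bins, the same for both libraries.

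Contacts of each locus were summed by class in Python 3.11.15 with numpy 2.4.6, pandas 2.3.3 and scipy 1.17.1, and figures were drawn with matplotlib 3.10.9. Raw counts were used with no correction for coverage, and the gene table gives no strand. With 1 library per group there is no p-value. Ratios have exact conditional binomial 95% intervals, shares have exact Clopper-Pearson ones and observed over expected counts have exact Poisson ones, all for counting error only. Gene density is the number of protein-coding genes in 21 bins, in 10 strata, and every other locus of a stratum was used with no drawing. Ratios and intervals were tested on simulated data.

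Genes were named by role (the P stalk, Rpsa, Rps6, Rpl5, Rpl11, Rps19, Rps27a, Rpl3, Rpl4 and Rps3), as the 5 lowest and 5 highest local ratios among loci holding 200 or more local contacts in total, as the 3 with most and 3 with fewest same-bin contacts, as pairs with most contacts, and as loci at the ends of each other list, of which some are printed. Of 5 trans pairs planned, 1 is named because the rest tie. Some loci that the rule would name, among them members sharing a bin, are not reported here. Members and lists were chosen with earlier results of these data known. Alternatives were other local ranges, loci, scalings, density windows and strata.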

Additional observations from a re-analysis of the deposited data

How the results depend on the processing

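The 12 summary values were recomputed under 60 alternatives: 41 kept their value within the counting interval or, for counts, within 1.5 times, 19 moved and 0 reversed. Scaling to the totals of all contacts gave a pooled local log2 ratio of -0.24, a median of -0.26, 31 loci lower and 1 higher, -0.24 within bins and -0.50 in trans. Scaling to the median protein-coding locus gave -0.24, -0.26, 31 and 1 for the local values. The shares of all loci called lower under these scalings are not given here. With 1 neighbouring bin on each side the pooled local ratio was -0.36 and the trans shares were 31.3% with vehicle and 28.0% with GW4064, and without same-bin contacts those shares were 35.0% and 32.0%. Some alternatives were chosen after seeing the data. Of these, leaving out the highest density stratum gave -0.34 pooled and -0.35 as the median, crossing density with vehicle contacts per bin gave a difference of -0.15 from other loci, and the neighbouring bins alone gave 1.54 for trans contacts among members with GW4064. The cause of these moves was not tested. No paired analysis was possible because each group has 1 library. Depth limits single loci, since 39 of 71 same-bin intervals and 43 of 71 trans intervals held 0 on the log2 scale, and the contacts among members on different chromosomes numbered 22 and 27.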
